A study of Rattus norvegicus with 6 samples.

Results

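The genes described here are the core of the Wnt pathway in neonatal rat cardiomyocytes: the ligands, their receptors and co-receptors, the secreted antagonists, and the proteins that carry the signal to the nucleus. Members were taken by gene name (Wnt, Fzd, Sfrp, Dkk and Dvl genes with a number, Lrp5, Lrp6, Axin1 or Axin2, Apc, Ctnnb1, names starting with Tcf7, and Lef1), which gave 48 of the 22250 genes in the table. The rule uses names and no expression value. Axin1 and Fzd10 were not analysed here.

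The cells came from the hearts of wild-type Sprague-Dawley rats 1 day old, were freed with collagenase and were cultured with foetal bovine serum. They received either the solvent DMSO or 3Cl-HBA at 40 µM for 48 h, in a study whose title names hydroxycarboxylic acid receptor 1, a receptor for lactate. Each treatment had 3 RNA-seq libraries, numbered 1 to 3 in the labels, and whether these were separate cultures or animals is not stated. So p-values measure only the spread between these libraries, which may be technical.

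Wnt proteins are secreted, lipid-modified signals that bind Frizzled receptors together with the co-receptors Lrp5 or Lrp6. In the absence of a signal, a destruction complex built on Axin and Apc marks beta-catenin (Ctnnb1) for degradation. When receptors are engaged, Dishevelled proteins (Dvl) hold this complex back, and beta-catenin enters the nucleus and works with TCF and LEF factors. Other Wnt proteins, with Wnt5a and Wnt11 as the usual examples, act mostly through routes that do not need beta-catenin. In the heart the pathway is best known for its part in specifying and then expanding cardiac progenitors, and for its return after injury.

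The libraries held 13240800 to 17202191 reads assigned to genes, and each 3Cl-HBA library was deeper than each DMSO library. The 48 members took 0.206% to 0.209% of the reads in DMSO and 0.204% to 0.207% with 3Cl-HBA. Markers of heart muscle (10 genes) had the highest sum in reads scaled by library size (CPM), at 22594 to 24030 CPM in DMSO and 22835 to 23045 CPM with 3Cl-HBA. Fibroblast markers were also high (9 genes, 15357 to 16249 and 15446 to 15763 CPM). Those of smooth muscle and pericytes (8 genes, 2553 to 2793 and 2618 to 2662 CPM), endothelium (7 genes, 635 to 717 and 653 to 680 CPM), macrophages (7 genes, 324 to 352 and 351 to 362 CPM), Schwann cells and neurons (7 genes, 108 to 109.9 and 108 to 128 CPM) and epicardium (5 genes, 94.1 to 99.8 and 95.2 to 97.1 CPM) were lower. The lists differ in size and the sums are not scaled by gene length, so they do not give the share of each cell type. The highest single marker was the fibroblast gene Col1a1 (mean 10458 and 10178 CPM), above Myh6 of heart muscle (8463 and 8435 CPM). Col1a2, also a listed fibroblast marker, was not matched to a row. No gene of these lists was at 0 in all libraries, and the summed ranges of the groups overlapped for each list. By edgeR 0 marker genes passed after adjustment. Of the 10 heart muscle markers 4 had a log2 fold change above 0, the median was -0.0043, and 3 (30.0%, against 5.11% of all tested genes) had an unadjusted p under 0.05, all 3 lower. All 7 macrophage markers and all 5 tested Schwann cell and neuron markers were above 0, with 0 at an unadjusted p under 0.05. In the other lists 4 of 9 fibroblast, 3 of 8 smooth muscle and pericyte, 3 of 7 endothelial and 3 of 5 epicardial markers were above 0. These lists also had 0 genes at an unadjusted p under 0.05. Of all tested genes 49.8% were above 0. The part of these markers in the results was not tested. These are whole cultures, so which cells express a Wnt gene was not tested, and fewer cells of a type cannot be told apart from less RNA per cell.

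Most of the pathway was transcribed. Of the 48 members, 38 had at least 1 read in each of the 6 libraries, 5 had reads in some libraries and 5 had none. Every co-receptor, Sfrp, Dvl, destruction complex and TCF/LEF member was read in all 6 libraries, against 11 of 19 ligands, 8 of 9 Frizzled receptors and 3 of 4 Dkk genes. With a minimum of 10 reads in each library 33 members remained, and with a minimum of 1 FPKM 29 did. FPKM, as deposited, is the read count scaled by gene length and library size, and is the scale on which levels of different genes are compared below.

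**Figure D1:**
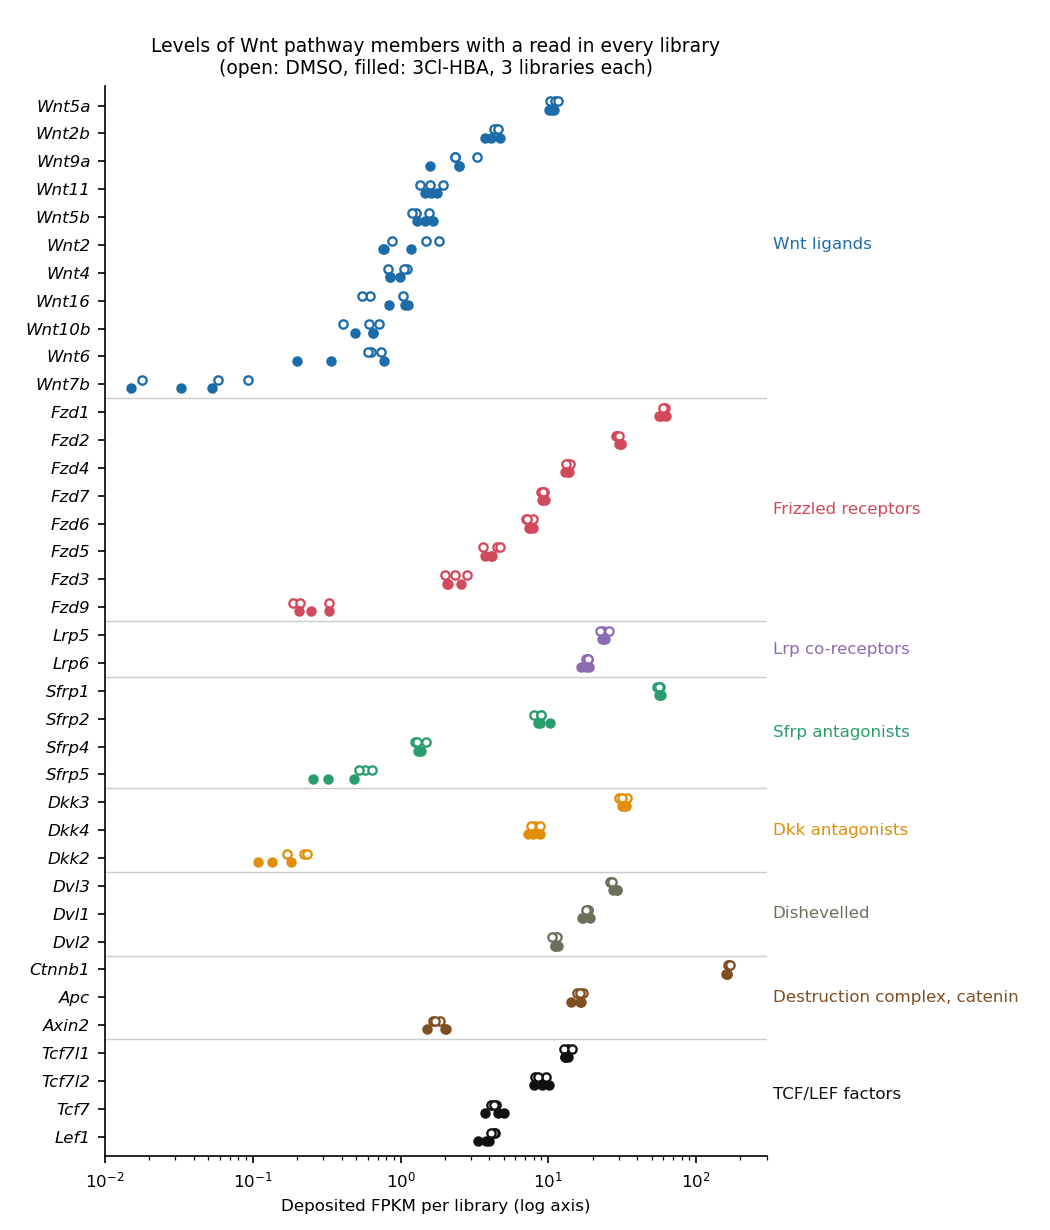
Deposited FPKM (log axis) of the 38 members with a read in every library, by class, with open points for the 3 DMSO libraries and filled points for the 3 3Cl-HBA libraries. Ctnnb1 lies highest, Fzd1 and Sfrp1 lead their classes at over 50 FPKM, and only Wnt5a among the ligands exceeds 10 FPKM in all libraries.

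Wnt5a, the main ligand of beta-catenin-independent signalling, was the most abundant ligand, at 11.0 ± 0.74 FPKM in DMSO and 10.6 ± 0.39 FPKM with 3Cl-HBA (mean ± SD, n = 3, as for the levels below). It made up 40.8% to 45.1% of the summed FPKM of all Wnt genes in the 6 libraries. Wnt2b, which signals through beta-catenin, came next at 4.45 ± 0.14 and 4.18 ± 0.50 FPKM. The steps from Wnt5a to Wnt2b and from Wnt2b to Wnt9a (2.67 ± 0.54 and 2.19 ± 0.53 FPKM) were larger than the range over libraries. Below them Wnt9a, Wnt11 (1.63 ± 0.30 and 1.62 ± 0.15 FPKM), Wnt5b, Wnt2, Wnt4, Wnt16, Wnt10b and Wnt6 formed a graded series in which each overlapped its neighbour in range. Its lower end was Wnt10b (0.575 ± 0.16 and 0.598 ± 0.094 FPKM) and Wnt6 (0.655 ± 0.070 and 0.437 ± 0.30 FPKM). Wnt2b lies within the span of St7l on the opposite strand, so its reads may be shared with that gene. The place of Wnt9a rests on a deposited length of 609 bases, the shortest among the ligands, and on 14 to 29 reads per library. By CPM, without scaling for length, Wnt9a (1.62 in DMSO and 1.33 with 3Cl-HBA) lay below Wnt4 (5.83 and 5.23), Wnt11 (4.21 and 4.18) and Wnt5b (3.47 and 3.78).

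Several ligands known for strong beta-catenin signalling were at or near 0. Wnt3a, Wnt8a and Wnt9b had no read in any library, which allows a level of up to 0.0336 CPM over all 6 libraries (counting error only). Wnt1 had 3, 0 and 0 reads in DMSO against 2, 1 and 1 with 3Cl-HBA, and Wnt3 had 2, 0 and 0 against 1, 3 and 3. Wnt7b had 5, 1 and 3 reads in DMSO against 3, 1 and 2 with 3Cl-HBA. Wnt10a had 1 read in all, and Wnt7a had 5, all of them in 3Cl-HBA replicate 2. Wnt8b had 0 reads in each DMSO library and 1, 4 and 2 reads with 3Cl-HBA, too few for the test.

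Frizzled receptors, the membrane proteins that bind Wnt, were more abundant than the ligands. Their summed level was 127 ± 2.1 FPKM in DMSO and 127 ± 2.5 FPKM with 3Cl-HBA, against 25.6 ± 0.47 and 24.1 ± 1.5 FPKM for the 19 ligands. Fzd1 led with 60.6 ± 1.1 and 59.1 ± 3.2 FPKM, which was 45.5% to 48.5% of the receptor sum. Fzd2 (29.4 ± 0.73 and 30.8 ± 0.43 FPKM), Fzd4 (13.6 ± 0.43 and 13.4 ± 0.42 FPKM), Fzd7 (9.13 ± 0.23 and 9.25 ± 0.21 FPKM), Fzd6 (7.38 ± 0.43 and 7.64 ± 0.25 FPKM), Fzd5 (4.29 ± 0.59 and 3.99 ± 0.24 FPKM) and Fzd3 (2.39 ± 0.42 and 2.24 ± 0.28 FPKM) followed, and each step of this order exceeded the range over libraries. Fzd9 had 6 to 13 reads per library and Fzd8 none. The co-receptors were close to each other, with Lrp5 at 23.9 ± 1.8 and 23.6 ± 0.58 FPKM and Lrp6 at 18.4 ± 0.30 and 17.9 ± 1.0 FPKM, and their ranges did not overlap.

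Secreted antagonists exceeded the ligands as well. Sfrp proteins carry a Frizzled-like domain that binds Wnt outside the cell, and their summed level was 66.4 ± 1.7 FPKM in DMSO and 68.1 ± 1.6 FPKM with 3Cl-HBA. Sfrp1 alone had 55.8 ± 1.3 and 57.2 ± 0.86 FPKM, or 82.9% to 85.0% of that sum. Sfrp2 had 8.66 ± 0.52 and 9.17 ± 0.94 FPKM, Sfrp4 had 1.34 ± 0.12 and 1.35 ± 0.029 FPKM, and Sfrp5 had 0.581 ± 0.063 and 0.353 ± 0.12 FPKM. The span of Sfrp4 overlaps that of Nme8 on the opposite strand by 67043 bases, with the same limit as for Wnt2b. In the Dkk family, whose classical members block Lrp5 and Lrp6, Dkk1 had no read and Dkk2 had 6 to 12 reads per library. Dkk3, a divergent member whose effect on Wnt signalling is weak or disputed, had 31.8 ± 2.0 and 32.6 ± 0.97 FPKM, and Dkk4 had 8.18 ± 0.59 and 7.96 ± 0.77 FPKM.

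Inside the cell, Ctnnb1 was the most abundant member, at 167 ± 2.7 FPKM in DMSO and 161 ± 1.3 FPKM with 3Cl-HBA. Beta-catenin also links cadherins to the actin cytoskeleton at cell junctions, so its transcript is not specific to Wnt signalling. Apc had 16.4 ± 0.75 and 15.7 ± 1.3 FPKM. The Dishevelled genes lay in the order Dvl3 (26.5 ± 0.34 and 28.5 ± 1.1 FPKM), Dvl1 (18.4 ± 0.39 and 17.8 ± 1.2 FPKM) and Dvl2 (11.1 ± 0.46 and 11.3 ± 0.28 FPKM), with no overlap in range. Among the nuclear factors Tcf7l1, which acts mostly as a repressor, had 13.6 ± 0.87 and 13.2 ± 0.40 FPKM and Tcf7l2, an activator or repressor depending on its partners, had 8.75 ± 0.77 and 9.06 ± 1.1 FPKM. Tcf7 (4.26 ± 0.17 and 4.44 ± 0.65 FPKM) and Lef1 (4.24 ± 0.12 and 3.69 ± 0.32 FPKM) overlapped in range.

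Axin2, a negative regulator that is itself a widely used target of beta-catenin, had 1.74 ± 0.10 FPKM in DMSO and 1.85 ± 0.29 FPKM with 3Cl-HBA. Its promoter was searched, with those of the other members, for the letters bound by TCF and LEF factors. RefSeq promoters of assembly GRCr8, each 300 bases long (250 before the gene's start and 50 from it), were matched by symbol for 35 of the 48 members. They were searched on both strands for CTTTGAA and CTTTGAT, which differ in their last letter and so cannot match at the same place of a strand, though matches on opposite strands can overlap. A match was found in 5 of the 35 (14.3%), namely Axin2, Tcf7, Fzd7, Dkk1 and Wnt8a, and in 2921 of 33469 promoters in the whole table (8.73%). Of the 35, Axin2 alone had both strings, which 101 promoters of the whole table had (0.302%). The promoters of the 3 members that were both matched and expressed are shown because they carry these strings in genes whose levels are given here, with each match in capitals.
Axin2: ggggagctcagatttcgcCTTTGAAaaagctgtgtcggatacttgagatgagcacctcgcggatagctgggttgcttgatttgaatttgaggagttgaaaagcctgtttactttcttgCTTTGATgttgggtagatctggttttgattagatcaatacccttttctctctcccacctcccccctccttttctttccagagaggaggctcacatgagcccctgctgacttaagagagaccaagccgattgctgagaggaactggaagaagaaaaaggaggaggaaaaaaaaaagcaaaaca
Tcf7: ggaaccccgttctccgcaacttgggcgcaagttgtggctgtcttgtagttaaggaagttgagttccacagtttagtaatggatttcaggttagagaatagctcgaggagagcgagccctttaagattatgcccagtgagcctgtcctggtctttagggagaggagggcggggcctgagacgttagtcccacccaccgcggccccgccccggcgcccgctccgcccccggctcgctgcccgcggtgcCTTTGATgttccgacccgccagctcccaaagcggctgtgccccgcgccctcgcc
Fzd7: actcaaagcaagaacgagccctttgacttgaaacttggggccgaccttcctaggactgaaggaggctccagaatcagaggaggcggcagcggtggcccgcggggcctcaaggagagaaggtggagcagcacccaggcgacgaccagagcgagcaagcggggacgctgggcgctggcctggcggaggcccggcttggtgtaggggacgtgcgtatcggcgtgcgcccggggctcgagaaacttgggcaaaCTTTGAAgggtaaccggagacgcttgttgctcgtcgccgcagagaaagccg
The Axin2 promoter (chr10:94398535-94398834, plus strand) has its matches beginning 232 and 132 bases before the start of the gene. In the Tcf7 promoter (chr10:36954230-36954529, minus strand) and the Fzd7 promoter (chr9:68425288-68425587, plus strand) the match begins 4 bases and 1 base before the start. A match is a description of these letters and shows no binding.

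No member differed between 3Cl-HBA and DMSO by the test. Of the 48 members, 35 passed the filter on low counts and were tested with edgeR's quasi-likelihood test among 13903 genes, and 0 had a Benjamini-Hochberg adjusted p under 0.05, as had 0 of all genes (0.0%). At an unadjusted p under 0.05 there were also 0 of 35 members, against 711 of all genes tested (5.11%). DESeq2 and limma-voom likewise gave 0 members at either threshold. Leaving out DMSO replicate 2 or 3, or 3Cl-HBA replicate 2 or 3, raised the calls over all genes to 1, 8, 2 and 3, and none of these genes was a member.

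Log2 fold changes (3Cl-HBA minus DMSO) of the 35 members ran from -0.73 to 0.46 with a median of -0.015, and 15 of 35 (42.9%) were above 0. Over all genes the median was -0.00051, and 49.8% were above 0. The members' median turned to 0.0051 without 3Cl-HBA replicate 1. The median size of the change, sign aside, was 0.058 for members and 0.069 for all genes. Of the 35, Wnt6 and Sfrp5 reached the count minimum in all 3 DMSO libraries and in only 2 and 1 of the 3Cl-HBA libraries, so their place among the tested genes rests on the group where they were higher.

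**Figure D2:**
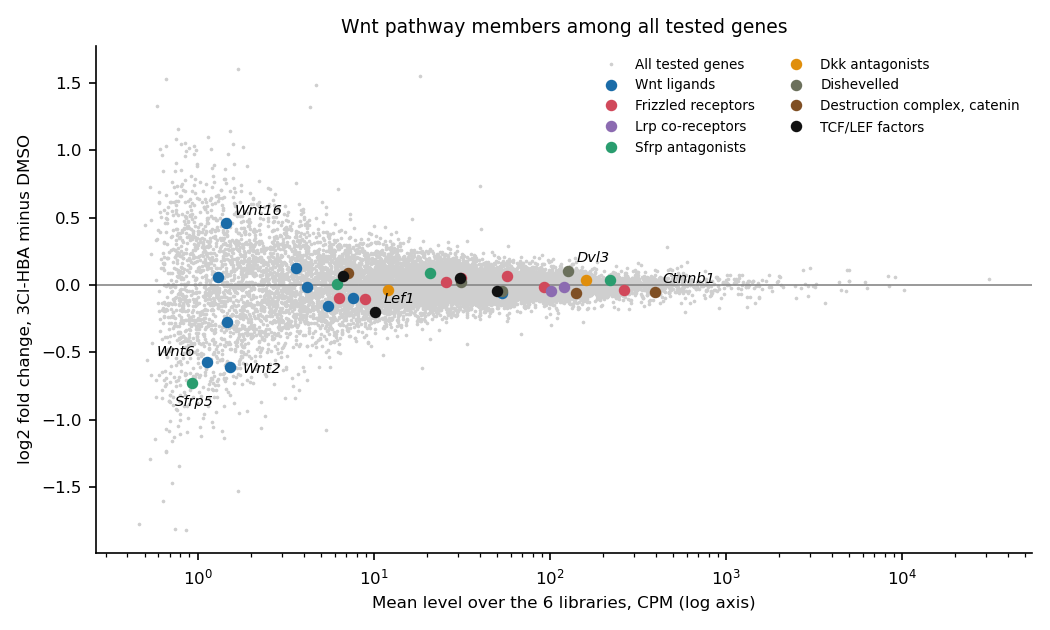
Log2 fold change of the 35 tested members (coloured by class) and of all 13903 tested genes (grey) against mean level in CPM (log axis). Members with a mean of at least 5 CPM lie between -0.20 and 0.11, and the wider changes belong to low-count members such as Wnt2, Wnt6, Wnt16 and Sfrp5, inside the grey spread.

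The intervals bound how large an undetected change could be. The 95% interval stayed within 2-fold for 31 of 35 members (88.6%, against 92.3% of all tested genes) and within 1.5-fold for 29 (82.9%, against 80.9%). All 27 members with a mean of at least 5 CPM were among the 29. Wnt2, Wnt6, Wnt16 and Sfrp5, with 6 to 34 reads per library, had intervals reaching beyond 2-fold, and a 2-fold change in the direction of the estimate lay inside each.

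**Figure D3:**
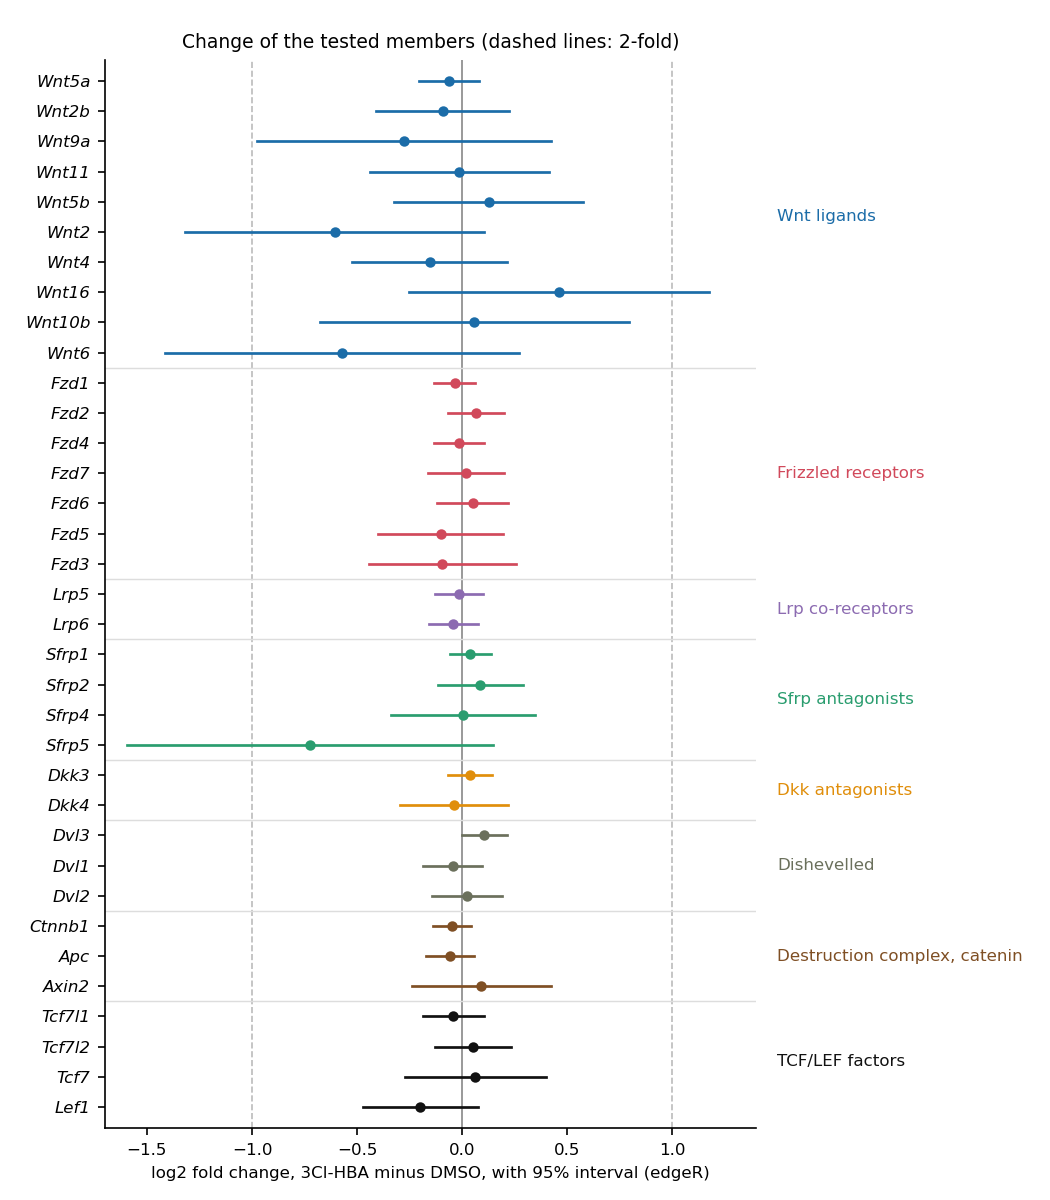
Log2 fold change (3Cl-HBA minus DMSO) with its 95% interval from edgeR for the 35 tested members, by class, with dashed lines at 2-fold. Each interval includes 0, and those of Wnt2, Wnt6, Wnt16 and Sfrp5 cross a dashed line.

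In 4 of the 35 members (11.4%) the 3 treated libraries lay entirely on one side of the 3 DMSO libraries, against 1454 of all tested genes (10.5%), a share near that background. Dvl3 was on the higher side (5.24% of all genes) and Ctnnb1, Lef1 and Sfrp5 were on the lower side (5.22% of all genes). Sfrp5 was tested through the group where it was higher, so its place in this count supports nothing. Levels are given below in CPM on TMM-scaled totals, which compares libraries for the same gene.

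Ctnnb1 (ENSRNOG00000054172, chromosome 8, 129617812 to 129627372, plus strand, as deposited, the build being one that no source used here gives, likewise below) had 398, 395 and 410.0 CPM in DMSO replicates 1 to 3 and 387, 386 and 390 CPM in 3Cl-HBA replicates 1 to 3. All 3 treated libraries were lower, by a margin of a few percent. The log2 fold change was -0.050 (SE 0.045, 95% limits -0.14 and 0.041, edgeR unadjusted p 0.276, adjusted p 0.984).

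Lef1 (ENSRNOG00000010121, chromosome 2, 236233239 to 236345056), a nuclear partner of beta-catenin and one of its targets, had 11.2, 11.0 and 10.6 CPM in DMSO against 9.75, 10.2 and 8.60 CPM with 3Cl-HBA. The groups did not overlap, and 3Cl-HBA replicate 3 was the lowest library. Its log2 fold change was -0.20 (SE 0.14, 95% limits -0.47 and 0.076, edgeR unadjusted p 0.153, adjusted p 0.984).

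Dvl3 (ENSRNOG00000001708, chromosome 11, 84051078 to 84068302) had 122, 121 and 125 CPM in DMSO against 126, 136 and 134 CPM with 3Cl-HBA. The lowest treated library was less than 1 CPM above the highest DMSO library. The log2 fold change of 0.11 (SE 0.054, 95% limits -0.0015 and 0.22) had the smallest edgeR unadjusted p of the tested members, 0.053 (adjusted p 0.959). That p was 0.0165 without 3Cl-HBA replicate 1, 0.0381 without DMSO replicate 3 and 0.0473 with no filter on low counts, and the adjusted p was 0.692 or more in these fits. The libraries left out there were the lowest treated library and the highest DMSO library, so a lower p follows from the choice. With any other library left out the edgeR unadjusted p was 0.113 to 0.19. It was 0.0749 with a replicate block, and DESeq2 gave 0.0622 and limma-voom 0.0568.

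Sfrp5 had 16, 15 and 17 reads in DMSO against 14, 11 and 8 reads with 3Cl-HBA, in deeper libraries. On the CPM scale this was 1.15, 1.03 and 1.29 against 0.955, 0.643 and 0.510. Its log2 fold change of -0.73 had a 95% interval of -1.60 to 0.15 (edgeR unadjusted p 0.1, adjusted p 0.974), so neither no change nor a fall of 2-fold lay outside the interval. Because Sfrp5 entered the test through its DMSO libraries, its position supports no statement about the antagonists.

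**Figure D4:**
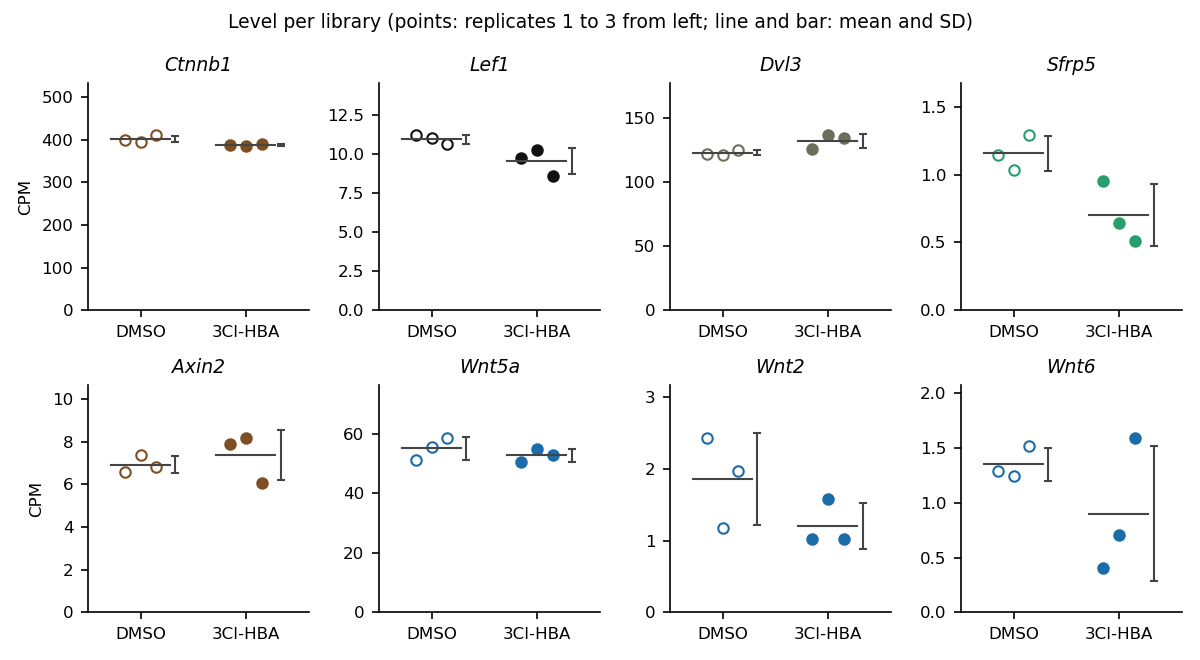
CPM per library, with axes from 0, for the 4 members whose groups do not overlap (Ctnnb1, Lef1, Dvl3, Sfrp5) and for Axin2, Wnt5a, Wnt2 and Wnt6; points are replicates 1 to 3 from left to right, lines are means and bars are SD (n = 3). Ctnnb1 and Dvl3 differ between groups by a small part of their level, and the treated libraries of Wnt6 span 0.409 to 1.59 CPM.

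Among the ligands, 3 of 10 tested genes had a log2 fold change above 0 and the median was -0.077. These 10 include Wnt6, which was tested through the group where it was higher. Wnt5a (ENSRNOG00000015618, chromosome 16, 4469468 to 4489860) had 51.1, 55.6 and 58.8 CPM in DMSO against 50.5, 54.9 and 53.0 CPM with 3Cl-HBA. These overlapped, with a log2 fold change of -0.062 (SE 0.071, 95% limits -0.20 and 0.080, edgeR adjusted p 0.986). Wnt2b had 7.87, 7.64 and 8.19 CPM against 7.30, 6.61 and 8.34 CPM (log2 fold change -0.092, SE 0.16, edgeR adjusted p 0.990).

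4 further low-count members were singled out after their values were seen (Sfrp5 above, Wnt2, Wnt6 and Wnt16). Wnt2 had 34, 17 and 26 reads in DMSO against 15, 27 and 16 with 3Cl-HBA. DMSO replicate 2 lay within the treated range. Its log2 fold change was -0.61 (SE 0.35, edgeR unadjusted p 0.0936, adjusted p 0.974), and the unadjusted p became 0.0271 without DMSO replicate 2 and 0.0495 without 3Cl-HBA replicate 2 (adjusted p 0.916 and 0.998). For Wnt2 these were the lowest DMSO library and the highest treated library, so a lower p follows from the choice. Under no other setting was the unadjusted p of Wnt2 under 0.05. Wnt6 had 18, 18 and 20 reads against 6, 12 and 25, so 3Cl-HBA replicate 3 was the highest of all libraries and the other treated libraries were the lowest. Without that library the edgeR unadjusted p of Wnt6 was 0.0171 (adjusted p 0.991), against 0.178 with it. Wnt6 was tested through its DMSO libraries, and the library left out is the treated library above them. Its direction therefore supports no statement about the ligands. Wnt16 had 24, 15 and 12 reads against 26, 32 and 22, with overlap between the groups.

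Receptors and co-receptors showed narrow intervals around 0. Log2 fold changes of the 7 tested Frizzled genes ran from -0.10 to 0.068, with SEs of 0.049 to 0.17, and 3 were above 0. Fzd1 (chromosome 4, 26470864 to 26475262) had 267, 270.4 and 262 CPM in DMSO against 275, 257 and 249 CPM with 3Cl-HBA, and the treated libraries lay on both sides of the DMSO libraries (log2 fold change -0.035, SE 0.049, edgeR adjusted p 0.987). Fzd2 had 54.9, 55.9 and 58.0 CPM against 57.7, 59.7 and 59.5 CPM, so that of the treated libraries 3Cl-HBA replicate 1 alone lay within the DMSO range (0.068, SE 0.067, edgeR adjusted p 0.984). Lrp5 had 119, 113 and 132 CPM against 117, 119 and 124 CPM, and Lrp6 had 104, 102 and 106 CPM against 94.0, 103 and 106 CPM. The log2 fold changes of these co-receptors were -0.014 and -0.042 (SEs 0.057 and 0.058).

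The abundant antagonists overlapped between groups too. Sfrp1 (chromosome 16, 73372007 to 73410777) had 211, 221 and 220 CPM in DMSO against 218, 227 and 224 CPM with 3Cl-HBA (log2 fold change 0.039, SE 0.049, 95% limits -0.059 and 0.14, edgeR adjusted p 0.986). Sfrp2 had 18.8, 20.9 and 21.2 CPM against 20.4, 24.2 and 20.001 CPM (0.088, SE 0.10), with its highest value in 3Cl-HBA replicate 2. Dkk3 had 149.6, 169 and 159 CPM against 168, 164 and 159 CPM (0.038, SE 0.053), and Dkk4 had 12.2, 11.3 and 13.1 CPM against 11.7, 10.9 and 13.1 CPM (-0.036, SE 0.13). Dkk2, which was not tested, had 11, 12 and 8 reads in DMSO against 7, 11 and 6 with 3Cl-HBA.

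Of the remaining intracellular members, Axin2 (ENSRNOG00000055010, chromosome 10, 97212432 to 97239642) had 6.59, 7.37 and 6.82 CPM in DMSO against 7.91, 8.19 and 6.05 CPM with 3Cl-HBA. The treated libraries included both the highest values and the lowest. Its log2 fold change was 0.092 (SE 0.16, 95% limits -0.24 and 0.42, edgeR unadjusted p 0.575, adjusted p 0.990), which leaves changes of up to 1.34-fold upward inside the interval. Apc had 151, 138 and 146 CPM against 125, 147 and 145 CPM, with 3Cl-HBA replicate 1 below the rest (-0.058, SE 0.057). Dvl1 had 54.5, 55.1 and 53.2 CPM against 56.6, 51.5 and 50.003 CPM (-0.044, SE 0.070). Tcf7l1 had 51.0, 47.6 and 54.4 CPM against 48.1, 51.4 and 48.9 CPM (-0.041, SE 0.072), and Tcf7l2 had 28.3, 33.5 and 29.8 CPM against 27.8, 31.6 and 35.5 CPM (0.052, SE 0.091).

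The machinery around the members was also without calls. In 7 wider lists of Wnt pathway genes, 0 of the tested genes passed over all genes (background 0.0%). Ligand secretion and processing had 7 tested genes, 4 above 0, a median log2 fold change of 0.0081 and 0 with an unadjusted edgeR p under 0.05. Its most abundant gene by FPKM, the measure used for each list, was Gpc3, a surface glypican, at 150 ± 3.2 CPM in DMSO and 152 ± 1.4 CPM with 3Cl-HBA. Wls was close to it by FPKM (78.4 and 81.0, against 81.3 and 81.9 for Gpc3) and higher by CPM (341 and 352 CPM). The R-spondin list had 8 tested genes, 5 above 0, a median of 0.010 and 0 at an unadjusted p under 0.05. Of these, Rspo2 and Rspo4 met the count minimum in all 3 libraries with 3Cl-HBA and in 2 with DMSO, so they were tested through the group where they were higher. It was led by the R-spondin receptor Lgr4 at 103 ± 3.4 and 104 ± 3.5 CPM.

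Other extracellular antagonists had 6 tested genes, 4 above 0 and a median of 0.030, with 2 (33.3%) at an unadjusted edgeR p under 0.05, against 5.11% of all genes. Kremen1, a Dkk co-receptor that removes Lrp6 from the surface, had 48.5, 44.4 and 53.2 CPM in DMSO against 37.4, 46.4 and 40.5 CPM with 3Cl-HBA. 3Cl-HBA replicate 2 lay within the DMSO range, and the log2 fold change was -0.23 (SE 0.080, edgeR unadjusted p 0.0069, adjusted p 0.959). Apcdd1, a membrane inhibitor and beta-catenin target, had 15.5, 13.2 and 13.9 CPM against 16.3, 17.7 and 16.3 CPM, without overlap (0.24, SE 0.11, edgeR unadjusted p 0.039, adjusted p 0.959). It was 1 of the 6 tested genes without overlap (16.7%, against 10.5% of all tested genes).

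Kinases and ubiquitin ligase genes around the destruction complex had 18 tested rows, 9 above 0 and a median of -0.0019, with 3 (16.7%, against 5.11% of all genes) at an unadjusted edgeR p under 0.05. These were Tnks and 2 rows both named Tnks2, for tankyrases, enzymes that mark Axin for degradation. Tnks had 117, 102 and 103 CPM in DMSO against 94.0, 95.4 and 103 CPM with 3Cl-HBA, overlapping by 3Cl-HBA replicate 3 (log2 fold change -0.14, SE 0.060, adjusted p 0.959). Reads may be split between the 2 Tnks2 rows, which are then not separate genes. The row on chromosome 1 (ENSRNOG00000052664) had 1.07, 1.72 and 1.52 CPM against 0.955, 0.643 and 0.637 CPM (-0.96, SE 0.41). It met the count minimum in 3 DMSO libraries and in 1 with 3Cl-HBA, so it was tested through the group where it was higher, and neither its direction nor its place in the count supports anything. The row on an unplaced contig (ENSRNOG00000059776) had 4.44, 2.20 and 3.03 CPM against 1.5, 1.64 and 1.78 CPM (-0.97, SE 0.29, edgeR unadjusted p 0.0017, adjusted p 0.914). Skp1, a subunit of the ubiquitin ligase, was the most abundant gene of the list at 412 ± 21 and 423 ± 11 CPM.

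Nuclear partners of beta-catenin had 19 tested genes, 10 above 0, a median of 0.00065 and 1 (5.26%, against 5.11% of all genes) at an unadjusted edgeR p under 0.05. This was the acetyltransferase gene Ep300, with 40.2, 42.4 and 36.5 CPM in DMSO against 30.5, 33.6 and 37.8 CPM with 3Cl-HBA, the last within the DMSO range (-0.22, SE 0.084, unadjusted p 0.011, adjusted p 0.959). By FPKM the corepressor Tle5 led the list, with 130 ± 5.9 and 134 ± 13 CPM, while by CPM Ctbp1 was higher (186 and 185 CPM). Non-canonical receptors and planar cell polarity genes had 17 tested genes, 7 above 0, a median of -0.0092 and 2 (11.8%, against 5.11% of all genes) at an unadjusted edgeR p under 0.05, led by the Wnt-binding receptor Ryk at 177 ± 5.9 and 175 ± 3.7 CPM. There Prickle1, a core polarity protein, had 65.1, 66.8 and 67.7 CPM against 73.7, 73.5 and 73.6 CPM without overlap (0.15, SE 0.062, edgeR unadjusted p 0.024, adjusted p 0.959), and Invs had a log2 fold change of -0.29 (SE 0.13, unadjusted p 0.034). Groups did not overlap for 2 of these 17 genes, Prickle1 and Prickle3 (11.8%, near the 10.5% of all tested genes).

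Commonly used beta-catenin target genes had 20 tested genes, the members Axin2, Lef1 and Tcf7 among them, 12 above 0 and a median of 0.016. Of the 24 listed, Notum (0 to 15 reads per library), Sp5 (0 to 3 reads) and Dkk1 (no read) were too low to be tested. Znrf3 was not matched to a row. The cyclin gene Ccnd2 was the most abundant by FPKM, and had 124 ± 6.4 CPM in DMSO and 116 ± 13 CPM with 3Cl-HBA. By CPM, without scaling for length, Ccnd1 was higher, at 242 and 245 CPM. The 2 genes with an unadjusted edgeR p under 0.05 (10.0% of the list, against 5.11% of all genes) were Apcdd1, given above, and Twist1, a transcription factor of mesenchymal cells. Twist1 had 16.3, 18.9 and 20.5 CPM against 22.7, 20.5 and 22.7 CPM, the groups meeting at one edge (0.24, SE 0.10, adjusted p 0.959).

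The deposited table itself assigns 155 genes to the KEGG Wnt signaling pathway, 46 of them members. Of 136 tested, 0 passed, 12 (8.82%, against 5.11% of all tested genes) had an unadjusted edgeR p under 0.05, 6 in each direction, and the median log2 fold change was -0.0068. Of 298 tested genes with a Gene Ontology process name that contains Wnt signaling pathway, 0 passed and 23 (7.72%, against the same 5.11%) had an unadjusted p under 0.05, 9 higher and 14 lower, with a median of -0.0099.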

How the data were processed

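Libraries came from a ribosomal RNA depletion kit and an Illumina HiSeq instrument, and the authors used DESeq2, per the labels' protocols. For aligner, counter, strand setting, genome build and annotation: not given in the sources used here. The deposited table holds raw read counts per gene, FPKM values and gene lengths in bases, per the file headers. FPKM served only to compare levels between genes. Counts were tested with edgeR 4.0.16 (quasi-likelihood, TMM scaling, limma 3.58.1, R 4.3.3) on all genes that passed filterByExpr with a minimum count of 10, which left 13903 of 22250, with Benjamini-Hochberg adjustment over all of them. The scripts were tested on simulated counts. Total counts were 13240800 to 17202191 per library. Limits for genes without reads take 3 counts and cover counting error only. The members and gene lists were chosen with earlier results of these data known. Fold changes were to be given for the 2 tested members with the highest mean FPKM in each class, for Ctnnb1, Axin2 and Lef1, and for members with an unadjusted p under 0.05; in the wider lists for the gene with the highest mean FPKM and those with an unadjusted p under 0.05. Other members given with fold changes were added after their values were seen. Alternatives were DESeq2 1.42.0, limma-voom, scaling by library totals, no filter or a minimum mean of 5 CPM, length-scaled counts in place of FPKM for the order of levels, a replicate block and leaving out each library. Whether same-numbered libraries belong together is not stated. Their deviations from the group means correlated at -0.113, -0.041 and -0.0085 over 11110 genes. This shows no visible shared effect but cannot exclude a shared preparation. Promoters are from RefSeq, assembly GRCr8, whose coordinates differ from those of the deposited table.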

Additional observations from a re-analysis of the deposited data

How the results depend on the processing

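No member was called under any of the alternatives run. Over all genes the calls were 0 with edgeR, 1 with limma-voom, 2 with no filter on low counts and 0 to 8 when each library was left out in turn; the causes were not tested. Genes with an unadjusted p under 0.05 numbered 405 with DESeq2, 954 with no filter and 544 to 963 with a library left out. Members with an unadjusted p under 0.05 numbered 2 with no filter (Dvl3 and Wnt8b) and 0 to 1 with a library left out. Wnt8b had no read in DMSO and was too low for the main test. How many genes were tested in these fits is not given here, so the counts are not read as shares. Median log2 fold changes with a library left out ran from -0.0202 to 0.0228 for ligand secretion, -0.0422 to 0.0853 for the R-spondin list, -0.0662 to 0.104 for other antagonists, -0.0321 to -0.00603 for kinases and ligase, -0.0346 to -0.00166 for nuclear partners, -0.0445 to 0.0258 for non-canonical and polarity genes, -0.00703 to 0.0816 for targets, -0.0226 to 0.00892 for the KEGG pathway and -0.0193 to -0.00361 for the Gene Ontology terms. With a minimum of 5 CPM the other antagonists had -0.0663. Single genes changed sign with a library left out: Dkk3 (-0.00653 to 0.0831), Dkk4 (-0.116 to 0.026), Sfrp2 (-0.00615 to 0.136), Tcf7l1 (-0.0903 to 0.00319), Tcf7l2 (-0.0399 to 0.135), Lrp5 (-0.0615 to 0.0455), Lrp6 (-0.0796 to 0.00512), Apc (-0.0995 to 0.0131), Gpc3 (-0.000373 to 0.0273), Lgr4 (-0.0129 to 0.0369), Skp1 (-0.0046 to 0.0694), Tle5 (-0.0346 to 0.0911), Ryk (-0.0349 to 0.01) and Ccnd2 (-0.147 to 0.00146). With a replicate block, 0 genes and 0 members were called, 604 genes and 0 members had an unadjusted p under 0.05, and the members' median was -0.0157. The samples are linked only by a number, so whether the block describes a pairing is not known. With scaling by library totals, chosen after seeing the data, 5 members had groups apart, against 4 with TMM scaling. No share over all genes is given for this scaling, so the count is not read as a result about the members. Genes under 5 CPM have no value under the stricter filter.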

Other observations

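The summed FPKM of Ctnnb1, Apc and Axin2 was 185, 182 and 188 in DMSO against 178, 178 and 179.8 with 3Cl-HBA, and Ctnnb1 made up 89.6% to 90.9% of it. That of Dvl1, Dvl2 and Dvl3 was 56.2, 56.4 and 55.5 in DMSO against 58.2, 57.8 and 57.0 with 3Cl-HBA. In these 2 of the 8 classes the sums of the groups did not overlap, in opposite directions. The 10.5% of tested genes whose groups did not overlap refers to single genes in CPM and is no background for these sums. Ctnnb1 and Dvl3, which lead the sums, were already counted among the members whose groups did not overlap. The sums were not tested, and neither Ctnnb1 nor Dvl3, the most abundant of each class, passed the edgeR test. The spread between libraries of the 35 tested members had a median coefficient of variation of 6.25% in DMSO and 8.80% with 3Cl-HBA.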
